A study of Mus musculus with 6 samples.

Results

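The genes described are 9 enzymes of the methionine cycle and of the one-carbon steps joined to it, out of 23284 genes in the count files. They were chosen by name: Mat1a, Gnmt, Ahcy, Bhmt, Bhmt2, Cbs, Cth, Pemt and Nnmt. All 9 were found and all 9 passed the filter on low counts. None of them met the criteria for a changed gene between Y67F-FXR and FXR-WT livers, which 0.972% of the 12453 tested genes met. Ahcy, Cth and Mat1a were the 3 with an unadjusted p under 0.05 (13.4% of tested genes), each higher in mice expressing Y67F-FXR, with fitted folds of 1.47, 1.43 and 1.35.

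Liver RNA was sequenced from male FXR-floxed mice, 3 in the FXR-WT group and 3 in the Y67F-FXR group. Every mouse had been injected through the tail vein at 8 weeks of age with AAV8-TBG-Cre, which deletes the floxed mouse FXR gene, together with a second AAV8-TBG vector that carried FXR, either wild type or with the Y67F substitution that removes a tyrosine phosphorylation site. FXR is the nuclear receptor for bile acids (BAs). The livers were taken 4 weeks after injection, when both groups had been fed chow with 0.5% cholic acid, a BA, for 6 h. The TBG promoter is active in hepatocytes, so the other cells of the liver kept the mouse gene. No group without cholic acid and no group without an FXR vector was analysed here.

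The methionine cycle supplies the methyl groups of the cell. Methionine is turned into S-adenosylmethionine (SAM), methyltransferases pass its methyl group on and leave S-adenosylhomocysteine, and this is split into adenosine and homocysteine. Homocysteine is then either methylated back to methionine, with betaine or a folate as the donor, or drained through cystathionine into cysteine, the precursor of glutathione and taurine. The liver carries out most of the body's methionine breakdown, and several of these enzymes are found mainly in hepatocytes.

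The libraries held from 19551113 to 22053320 counted reads, and 12453 genes were tested. In the edgeR quasi-likelihood test, 121 of them (0.972%) passed both criteria for a changed gene, a fitted fold over 1.5 and a p under 0.05 after Benjamini-Hochberg adjustment. A p under 0.05 without adjustment was found for 13.4% of the tested genes, and for 6.75% with the higher level in Y67F-FXR. The 3 livers of one group all lay above the 3 of the other at 20.6% of genes, and at 10.2% the Y67F-FXR livers were the higher ones. Levels are given in CPM, the reads of a gene relative to all reads of its library, scaled by TMM factors. Each library is taken as 1 mouse, and the p-values measure the spread between these mice. For Nr1h4, the FXR gene, FXR-WT livers averaged 186 ± 30.2 CPM and Y67F-FXR livers 175 ± 9.84 CPM (SD, n = 3 each). Reads of the endogenous gene and of the transgene cannot be told apart in these counts. The paper describes its Flag-FXR as human and does not name the species of the FXR in the AAV vectors. How far reads of a human transgene would be counted on mouse exons is not known. These levels are therefore not a measure of total FXR. Alb, the albumin gene that defines hepatocytes, averaged 71311 ± 1636 CPM in FXR-WT livers and 71807 ± 4473 CPM in Y67F-FXR livers (SD, n = 3 each).

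The sequences just before the start of transcription are shown for Ahcy, the member with the smallest p, and for Bhmt, the member with the most matches to the letters that nuclear receptors bind. Promoters were taken from RefSeq (GRCm38.p6) as the 250 bases upstream of the start, and 6 of the 9 members were matched there: Gnmt, Bhmt, Ahcy, Pemt, Cbs and Bhmt2. Pemt has a pair of starts there, so 7 windows were searched. Capitals mark AGGTCA, the half-site of FXR and other nuclear receptors, or its reverse complement. Ahcy is shown at chr2:155074498-155074747 and Bhmt at chr13:93637759-93638008, both on the minus strand of GRCm38.p6 and written 5′ to 3′.
Ahcy: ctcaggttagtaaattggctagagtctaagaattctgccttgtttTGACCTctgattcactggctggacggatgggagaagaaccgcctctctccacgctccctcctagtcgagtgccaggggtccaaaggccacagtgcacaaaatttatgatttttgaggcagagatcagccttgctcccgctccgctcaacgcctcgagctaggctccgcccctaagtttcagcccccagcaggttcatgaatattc
Bhmt: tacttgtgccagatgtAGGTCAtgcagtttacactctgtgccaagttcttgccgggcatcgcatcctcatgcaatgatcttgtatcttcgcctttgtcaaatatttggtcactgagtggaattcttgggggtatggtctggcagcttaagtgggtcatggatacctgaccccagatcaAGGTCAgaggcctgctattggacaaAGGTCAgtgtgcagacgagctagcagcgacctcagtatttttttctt
Searched on both strands, AGGTCA was found at 3 places in the Bhmt window, which begin 234, 72 and 47 bases before the start. Gnmt and Ahcy each held 1 match, and the windows of Bhmt2, Cbs and Pemt held 0. Of 32851 RefSeq promoter windows of the same length, 14.02% held at least 1 match and 1.36% held at least 2. The inverted repeat of this half-site with a spacer of 1 base, AGGTCANTGACCT, is the classical FXR element; it was in 0 of the 7 windows and in 2 of all 32851 (0.00609%). The FOXO element TGTTTAC and the composite element of ATF4 and C/EBP were each in 0 of the 7 windows, against 3.17% and 3.45% of all. The GC box GGGCGG was in the windows of Ahcy (1 match), Bhmt2 (2) and Cbs (2), against 32.7% of all. A match is only a run of letters, and a window without one says nothing of binding elsewhere.

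Mat1a makes SAM from methionine and is the adult liver form of methionine adenosyltransferase (chromosome 14 of mm9, 41918670 to 41937701, plus strand, 9 exons). Its level was 3952, 5023 and 4645 CPM in FXR-WT replicates 1 to 3 and 6682, 5524 and 6161 CPM in Y67F-FXR replicates 1 to 3. Every Y67F-FXR liver lay above every FXR-WT liver. The group means were 4540.0 ± 543 and 6123 ± 580.2 CPM (SD, n = 3 each). Y67F-FXR exceeded FXR-WT by a log2 fold change of 0.43 (standard error 0.146, 95% interval 0.09 to 0.77), with an unadjusted p of 0.0185 and an adjusted p of 0.246 in edgeR. It ranged from 0.34 to 0.51 when each liver was left out in turn, and the unadjusted p stayed under 0.05 for 5 of the 6. Without Y67F-FXR replicate 1 the unadjusted p was 0.0578. Mat2a, the form made in most other tissues, was named after its values were seen. It had means of 56.0 ± 10.8 CPM in the FXR-WT group and 76.1 ± 9.04 CPM in the Y67F-FXR group (SD, n = 3 each). It differed by 0.44 on the log2 scale (edgeR, adjusted p = 0.309).

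Ahcy splits S-adenosylhomocysteine, a product that inhibits most methyltransferases, into adenosine and homocysteine (chromosome 2 of mm9, 154885048 to 154900233, minus strand, 10 exons). It had 705, 859 and 678 CPM in FXR-WT replicates 1 to 3 and 1049, 1112 and 1129 CPM in Y67F-FXR replicates 1 to 3. All 3 Y67F-FXR livers were above the highest FXR-WT liver and lay close together, with a coefficient of variation of 3.87% against 13.1% in FXR-WT. The log2 fold change was 0.55 (standard error 0.134, 95% interval 0.24 to 0.86), the greatest of the 9. Its unadjusted p was 0.00328 and its adjusted p 0.118 (edgeR), so it did not meet the criteria. With 1 liver left out at a time it ranged from 0.49 to 0.67, and the unadjusted p stayed under 0.05 for each of the 6. DESeq2 gave Ahcy an adjusted p of 0.00650 and the edgeR likelihood ratio test one of 0.0396, in both at a fold under the minimum of 1.5. The counts of Ahcy are uncertain, because 63.6% of the 100-base windows of its GENCODE M21 transcripts also occur in transcripts of Gm4737 or Gm9826, and reads that mapped to several places were left out.

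**Figure D1:**
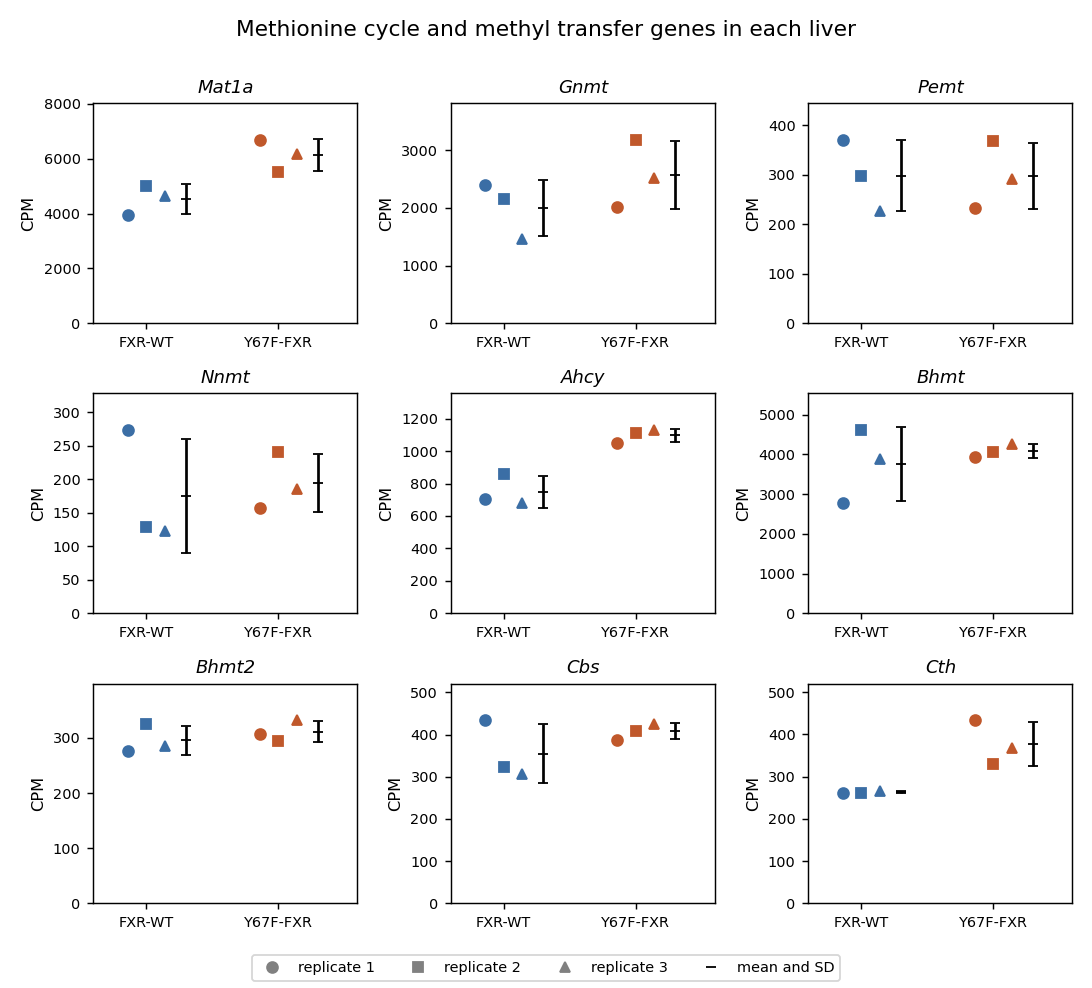
Level of each of the 9 genes in CPM (y axis, linear, from 0) in the 3 FXR-WT and 3 Y67F-FXR livers (x axis). Marks stand for replicates 1 to 3 and the bars for the mean and SD. The groups are apart for Mat1a, Ahcy and Cth and overlap for the other 6 genes.

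Bhmt and Bhmt2 return homocysteine to methionine with a methyl donor that needs no folate. Bhmt takes the methyl group from betaine, and Bhmt2 from S-methylmethionine. They are neighbours on the minus strand of chromosome 13, at 94386846 to 94407713 and 94426052 to 94444257 in mm9, each with 8 exons.

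Bhmt was at 2770.0, 4608 and 3884 CPM in FXR-WT replicates 1 to 3 and at 3933, 4054 and 4268 CPM in Y67F-FXR replicates 1 to 3. FXR-WT replicate 1 held the lowest level and FXR-WT replicate 2 the highest, so the Y67F-FXR range fell inside that of FXR-WT. In the fit Bhmt differed by 0.12 on the log2 scale (standard error 0.190, 95% interval -0.32 to 0.56, edgeR adjusted p = 0.861). Without FXR-WT replicate 1 it was -0.06. That liver also had the lowest Cyp2e1 and Glul, genes of hepatocytes around the central vein: Cyp2e1 was at 7345 CPM there against 14171 and 12436 CPM in the other FXR-WT livers. Glul was at 648 CPM there against 1247 and 1135 CPM. The part of this in the Bhmt result was not tested beyond leaving that liver out. Of the 100-base windows of Bhmt transcripts, 17.4% are shared with Bhmt-ps1, Gm15622 or Gm5096, so its counts are uncertain in the same way as those of Ahcy.

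Bhmt2 varied little, with 276, 325 and 285 CPM in FXR-WT replicates 1 to 3 and 307, 295 and 332 CPM in Y67F-FXR replicates 1 to 3. The groups overlapped. Its fitted log2 fold change was 0.08 (standard error 0.121, edgeR adjusted p = 0.865), and its 95% interval of -0.20 to 0.36 was the narrowest of the 9. Per kilobase of exon, Bhmt made up 91.0%, 93.5% and 93.2% of the reads of the pair in FXR-WT replicates 1 to 3 and 92.8%, 93.3% and 92.8% in Y67F-FXR replicates 1 to 3. The difference of 0.41 percentage points gave p = 0.9 in a two-sided exact permutation test, for which 0.1 is the smallest p that 3 livers against 3 allow.

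Cbs and Cth are the 2 steps of transsulfuration, by which homocysteine becomes cystathionine and then cysteine. Cth, cystathionine gamma-lyase (chromosome 3 of mm9, 157557212 to 157588027, minus strand, 12 exons), had 261, 262 and 266 CPM in FXR-WT replicates 1 to 3 and 434, 330.3 and 367 CPM in Y67F-FXR replicates 1 to 3. The FXR-WT livers were nearly level at 263 ± 2.26 CPM (SD, n = 3), and the Y67F-FXR livers, at 377 ± 52.4 CPM (SD, n = 3), all lay above them. The log2 fold change was 0.52 (standard error 0.132, 95% interval 0.21 to 0.83). Its unadjusted p was 0.00443 and its adjusted p 0.135 in edgeR, against 0.0113 in DESeq2. Leaving out each liver in turn gave 0.41 to 0.60, with an unadjusted p under 0.05 each time.

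Cbs, cystathionine beta-synthase (chromosome 17 of mm9, 31749589 to 31774086, minus strand, 17 exons), had 434, 324 and 306 CPM in FXR-WT replicates 1 to 3 and 388, 408 and 426 CPM in Y67F-FXR replicates 1 to 3. FXR-WT replicate 1 was the highest of the 6 livers and the other FXR-WT livers were the lowest, so the groups overlapped. For Cbs the log2 fold change was 0.20 (standard error 0.156, 95% interval -0.16 to 0.56, edgeR adjusted p = 0.672). It ran from 0.10 without FXR-WT replicate 3 to 0.37 without FXR-WT replicate 1, where the unadjusted p was 0.0179 and the edgeR adjusted p 0.291.

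Gnmt, Pemt and Nnmt spend SAM. Gnmt methylates glycine and keeps the ratio of SAM to its product in check, Pemt makes phosphatidylcholine from phosphatidylethanolamine, and Nnmt methylates nicotinamide. These are also the 3 shortest transcripts of the 9, at 1032, 834 and 954 bases of exon, and the only members in the shortest of 5 equal groups of tested genes by exon length, which reaches up to 1598 bases.

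Gnmt (chromosome 17 of mm9, 46862613 to 46866114, minus strand, 6 exons) had 2401, 2145 and 1465 CPM in FXR-WT replicates 1 to 3 and 2010.0, 3177 and 2522 CPM in Y67F-FXR replicates 1 to 3. Y67F-FXR replicates 2 and 3 were above all FXR-WT livers, whereas replicate 1 was below 2 of them. For Gnmt the log2 fold change was 0.36 (standard error 0.230, 95% interval -0.17 to 0.89, edgeR adjusted p = 0.587). It ran from 0.17 without Y67F-FXR replicate 2 to 0.51 without FXR-WT replicate 1, and no liver left out brought the unadjusted p under 0.05.

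Pemt (chromosome 11 of mm9, 59784119 to 59850341, minus strand, 7 exons) had 370.1, 297 and 226 CPM in FXR-WT replicates 1 to 3 and 234, 368 and 290.4 CPM in Y67F-FXR replicates 1 to 3. The values of the groups interleaved, with means of 298 ± 71.8 and 297 ± 67.3 CPM (SD, n = 3 each). The fitted difference was close to 0, and its 95% interval ran from -0.52 to 0.51 on the log2 scale (edgeR, adjusted p = 0.998).

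Nnmt (chromosome 9 of mm9, 48399995 to 48413182, minus strand, 3 exons) had 273, 129 and 122 CPM in FXR-WT replicates 1 to 3 and 157, 241 and 186 CPM in Y67F-FXR replicates 1 to 3. FXR-WT replicate 1 was above all other livers and the other FXR-WT livers were below all of them. For Nnmt the log2 fold change was 0.15 (standard error 0.319, 95% interval -0.58 to 0.89, edgeR adjusted p = 0.905), the widest interval of the 9. It moved between -0.05 and 0.63 as livers were left out, with the upper value without FXR-WT replicate 1.

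The spread of these 3 genes between livers of one group ran in the same order as that of short genes in general. Within FXR-WT, replicate 1 was the highest and replicate 3 the lowest for Gnmt, Pemt and Nnmt. Within Y67F-FXR, replicate 2 was the highest and replicate 1 the lowest for all 3. The median gene of that shortest group (2491 genes) deviated from its mean over the 6 livers by 0.20, -0.02 and -0.18 on the log2 scale in FXR-WT replicates 1 to 3 and by -0.20, 0.22 and -0.01 in Y67F-FXR replicates 1 to 3. The median gene of the longest group deviated by -0.13, 0.00 and 0.11 in FXR-WT and by 0.19, -0.17 and -0.01 in Y67F-FXR, in the same order of replicates. With loess offsets for gene length in the fit, the log2 fold change of Gnmt over all 6 livers was 0.36 and its unadjusted p 0.0312, against 0.157 without them (adjusted p = 0.239, edgeR). Under the same offsets the unadjusted p was 0.00129 for Ahcy, 0.00416 for Cth and 0.00556 for Mat1a. Their edgeR adjusted p values were then 0.0541, 0.0896 and 0.102, so none of the 9 met the criteria under the offsets either.

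**Figure D2:**
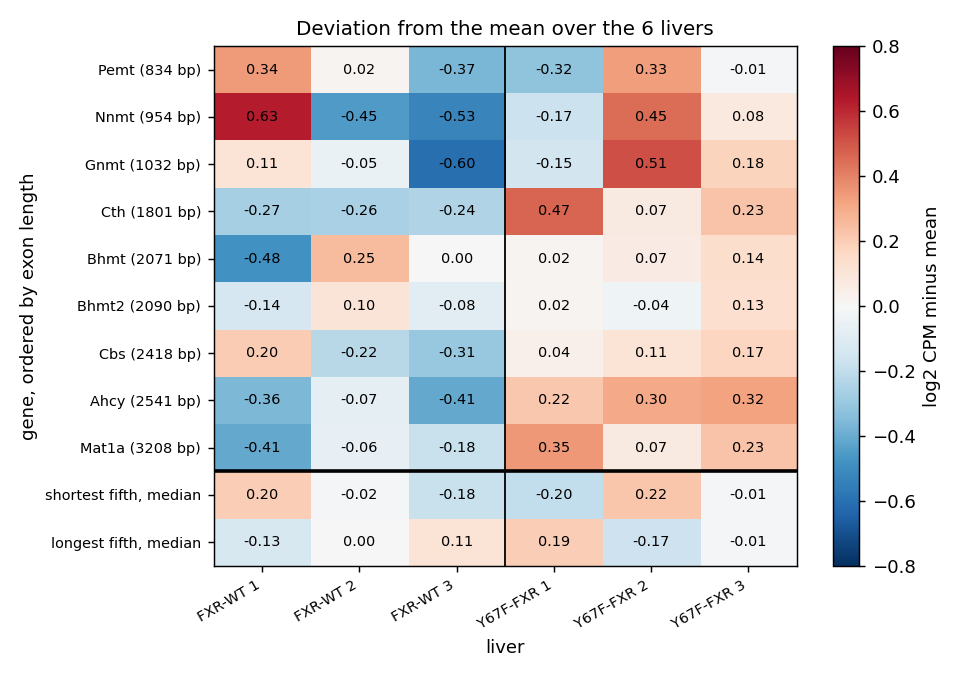
Log2 CPM minus the mean over the 6 livers (colour) for each of the 9 genes, from the shortest to the longest exon length (y axis), in each liver (x axis). The rows under the thick line give the median gene of the shortest and of the longest length group. Within each group, the 3 shortest members have their highest values in FXR-WT replicate 1 and Y67F-FXR replicate 2, where the shortest length group also deviates upward, by 0.20 and 0.22.

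Over the 9 genes, 0 met the criteria in the edgeR test, against 0.972% of all tested genes. The DESeq2 and likelihood ratio tests also called 0, as no fitted fold reached 1.5 in them. Their adjusted p was under 0.05 for 2 and 1 members. In the quasi-likelihood test an unadjusted p under 0.05 was found for 3, all higher in Y67F-FXR (6.75% of all tested genes were higher with such a p). The same 3 were the members whose groups did not overlap, all with Y67F-FXR the higher (10.2% of all tested genes). The fitted change was above 0 for 8 of 9, against 52.0% of all tested genes. Their median log2 fold change was 0.20, against 0.01 over all tested genes, while the median size of a change in either direction was 0.19 over all genes. Together the 9 genes took from 1.15% to 1.55% of the counted reads. Their summed level was 11442, 13973 and 11879 CPM in FXR-WT replicates 1 to 3 and 15193, 15507 and 15683 CPM in Y67F-FXR replicates 1 to 3. The lowest Y67F-FXR sum was thus above the highest FXR-WT sum, with Mat1a and Bhmt the members with the most reads. In whole liver, fewer cells of a type and less RNA per cell cannot be told apart.

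**Figure D3:**
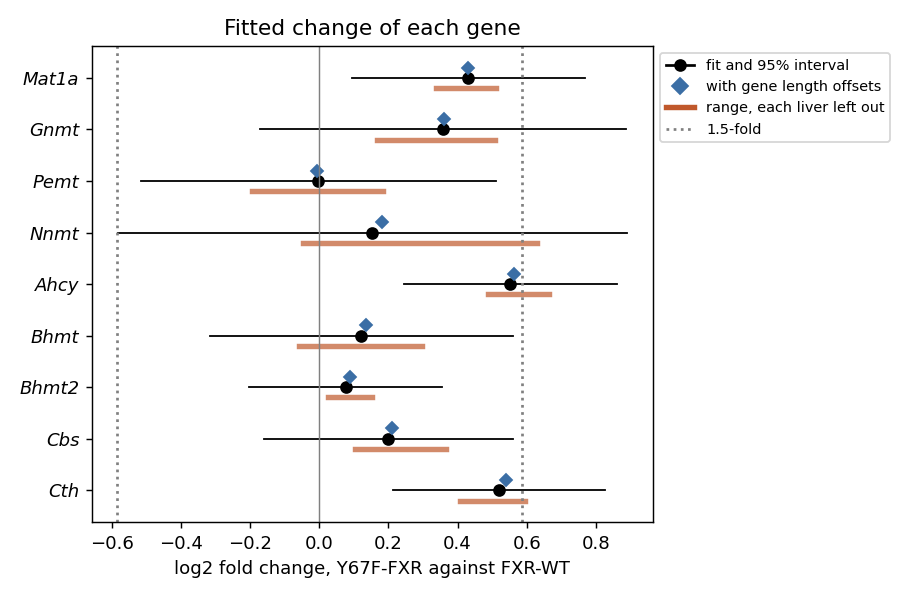
Log2 fold change of Y67F-FXR against FXR-WT (x axis) for each of the 9 genes (y axis), as the fit with its 95% interval, the fit with gene length offsets and the range when each liver is left out. The intervals of Ahcy, Cth and Mat1a lie above 0, and no fit to all 6 livers reaches the dotted line of 1.5-fold. The ranges with a liver left out pass that line for Ahcy (up to 0.67), Cth (0.60) and Nnmt (0.63).

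Levels between genes were compared per kilobase of exon, as means over all 6 livers. Gnmt stood first with 2216 CPM per kilobase, followed by Bhmt with 1893 and Mat1a with 1662. The ranges of these 3 over the livers overlapped, so their order is not set by these data. They ranked 31, 41 and 45 among the 12453 tested genes on this scale. Ahcy came next with 363 CPM per kilobase and its range did not touch that of Mat1a. Of the 100-base windows, 63.6% for Ahcy and 17.4% for Bhmt are shared with other genes. Reads that mapped to several places were left out, so the levels of Ahcy and Bhmt and their places in this order are uncertain. Pemt followed at 357, Nnmt at 194, Cth at 178, Cbs at 158 and Bhmt2 at 145 CPM per kilobase, and each of these overlapped with its neighbours in the order.

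Genes whose levels varied over the 6 livers most like a member were sought for Ahcy, the member with the smallest p, and for Gnmt. Gnmt had the highest mean level per kilobase, with a range that overlapped those of Bhmt and Mat1a. The measure was the mean absolute difference of log2 CPM, each centred on its mean over the 6 livers, among the 7173 genes that averaged 10 CPM or more. The closest to Ahcy were Rhbdd2 (0.0618), Tacc2 (0.0690) and Abcc10 (0.0693). Their log2 fold changes were 0.64, 0.46 and 0.46, and in edgeR none met the criteria, with adjusted p values of 0.0969, 0.192 and 0.198. The closest to Gnmt were Mzt2 (0.0421), 1110031I02Rik (0.0551) and Rabac1 (0.0657), with log2 fold changes of 0.35, 0.31 and 0.32 and edgeR adjusted p values of 0.596, 0.613 and 0.621. Their exon lengths are 1010, 1243 and 875 bases, so all lie in the shortest length group, as Gnmt does. The part of length in this likeness was not tested. Because the measure spans the livers of both groups, similar fold changes follow from the choice itself, for Ahcy and for Gnmt. Exons of Abcc10 overlap those of Dlk2, and exons of 1110031I02Rik those of Hexdc.

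The other genes of these pathways were taken from 7 lists with 100 genes, of which 97 were tested. Their fitted change was above 0 for 52 and below 0 for 45, with a median log2 fold change of 0.04. Of the 97, 2 rose by the criteria, Got1 and Etnk2, and 0 fell. An unadjusted p under 0.05 was found for 11 genes with the higher level in Y67F-FXR and 9 with the lower.

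Among 14 other genes of the methionine cycle and of methionine salvage, 8 were fitted higher and 6 lower, and 1 rose. That gene was Got1, the cytosolic aspartate aminotransferase, which can also form methionine from its keto acid in the last step of salvage. It had 89.3, 105 and 78.5 CPM in FXR-WT replicates 1 to 3 and 463, 485 and 436 CPM in Y67F-FXR replicates 1 to 3. The groups were far apart, and the log2 fold change was 2.34 (standard error 0.145, edgeR adjusted p = 0.00141). It was called under each of the alternatives tried. The median of the list was 0.09.

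Among 15 genes of choline, betaine and sarcosine metabolism, 13 were fitted higher and 2 lower, with a median of 0.19, and 1 rose. That was Etnk2, a liver ethanolamine kinase at the head of the route to phosphatidylethanolamine, the substrate of Pemt. It had 456, 408 and 338 CPM in FXR-WT replicates 1 to 3 and 688, 785 and 680.1 CPM in Y67F-FXR replicates 1 to 3, without overlap. The log2 fold change was 0.84 (standard error 0.147, edgeR adjusted p = 0.0483). The call was lost with each of the 6 livers left out, at adjusted p values from 0.0557 to 0.166 and log2 fold changes from 0.73 to 0.94 (edgeR).

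No gene of the other 5 lists met the criteria in the edgeR quasi-likelihood test, whereas DESeq2 and the likelihood ratio test each called 3, among them Slc19a1 and Gclc. Of 22 tested folate genes, 13 were fitted higher and 9 lower, with a median of 0.04 and an unadjusted p under 0.05 for 4. The 2 with the smallest p were Slc19a1, the reduced folate carrier (log2 fold change 0.82, adjusted p = 0.150), and Fpgs, which adds the glutamate tail that keeps folates in the cell (0.47, adjusted p = 0.150). Exons of Fpgs overlap those of Eng. Of 12 genes for cysteine, glutathione, taurine and sulfide, 4 were fitted higher and 8 lower, with a median of -0.08 and an unadjusted p under 0.05 for 3, all lower. Gclc and Gclm, the subunits of the enzyme that commits cysteine to glutathione, had log2 fold changes of -0.71 (adjusted p = 0.145) and -0.44 (adjusted p = 0.253) in edgeR. Gclc was at 165, 189.8 and 229.6 CPM in FXR-WT replicates 1 to 3 and at 141, 94.2 and 123 CPM in Y67F-FXR replicates 1 to 3, so that the groups did not overlap. With gene length offsets Gclc met the criteria (edgeR, adjusted p = 0.0429).

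Of 16 other SAM-dependent methyltransferases, 7 were fitted higher and 9 lower, with a median of -0.04 and an unadjusted p under 0.05 for 2. Mettl7b, named for its likeness to methyltransferases, was at 1027, 1059 and 961 CPM in FXR-WT replicates 1 to 3 and at 1193, 1602 and 1371 CPM in Y67F-FXR replicates 1 to 3, without overlap. It had a log2 fold change of 0.45 (edgeR, adjusted p = 0.212). Its exons overlap those of Itga7 in mm9, and the counting did not use strand.

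Polyamine synthesis uses decarboxylated SAM. Of 7 tested genes of polyamine metabolism, 3 were fitted higher and 4 lower, with a median of -0.08. An unadjusted p under 0.05 was found for 2, both lower. Srm, spermidine synthase, had a log2 fold change of -0.54 (edgeR, adjusted p = 0.303), and Odc1, which makes putrescine, one of -0.33 (edgeR, adjusted p = 0.361). Nicotinamide is the substrate of Nnmt. Of 11 genes of nicotinamide and NAD metabolism, 4 were fitted higher and 7 lower, with a median of -0.10 and an unadjusted p under 0.05 for 3. BC016495, the files' name for the nicotinamide riboside kinase Nmrk1, had a log2 fold change of 0.50 (edgeR, adjusted p = 0.124). Nadsyn1, the last enzyme of one route to NAD, had one of 0.40 (edgeR, adjusted p = 0.167).

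**Figure D4:**
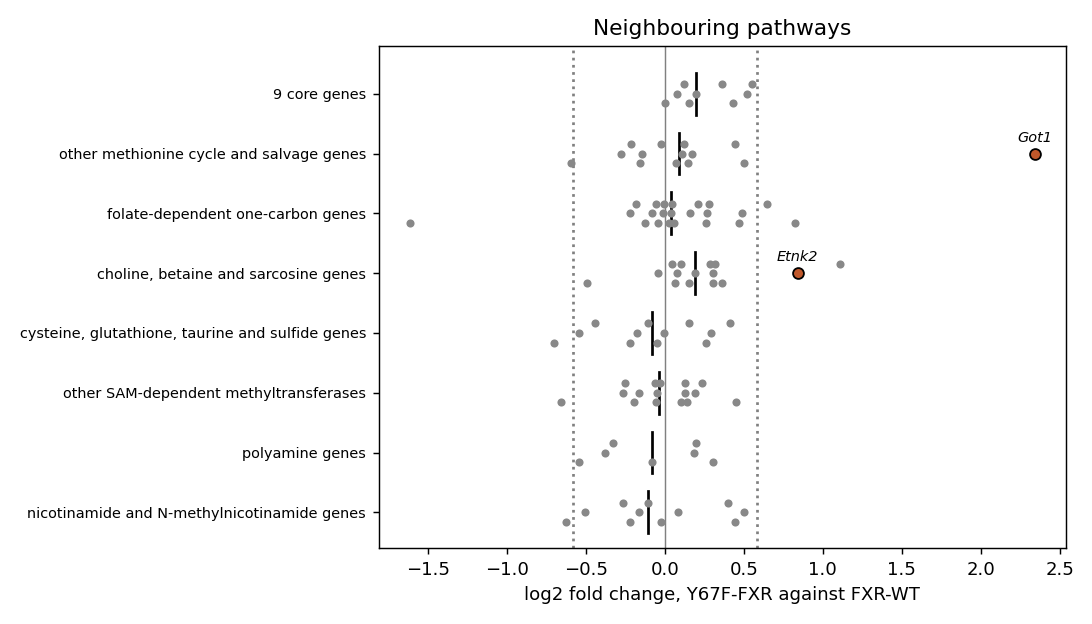
Log2 fold change of Y67F-FXR against FXR-WT (x axis) of each tested gene of the 9 members and of the 7 lists of neighbouring pathway genes (y axis), with the median of each list. Got1 at 2.34 and Etnk2 at 0.84 are the 2 called genes.

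Marker genes of the liver's cell types were counted beside these results. Of 58 tested markers, 0 met the criteria in edgeR, 10 had an unadjusted p under 0.05 (4 higher and 6 lower in Y67F-FXR), DESeq2 called 6 and the likelihood ratio test 7. The summed level of 6 hepatocyte markers was 102698 to 121971 CPM in FXR-WT and 99596 to 123147 CPM in Y67F-FXR livers. The 8 markers of periportal hepatocytes all had a fitted change above 0 (median 0.31 on the log2 scale), and their sum was 6428 to 7719 CPM in FXR-WT against 10229 to 11165 CPM in Y67F-FXR livers. Pck1, a gluconeogenic enzyme with 1932 CPM on average in FXR-WT and 4120.3 CPM in Y67F-FXR livers, made up more of this difference than the other 7 together. Without it, a choice made after its values were seen, the sums were 4758 to 6200.1 CPM in FXR-WT and 6367 to 6779 CPM in Y67F-FXR livers. Of the 8, Pck1 and Sds had an unadjusted p under 0.05. The difference of the list lay in the same direction as those of Ahcy, Cth and Mat1a. For 9 pericentral markers the sums were 9414 to 17556 CPM and 15121 to 17704 CPM, with the lowest value in FXR-WT replicate 1. Of these 9, 7 were fitted higher, with a median of 0.20, and groups did not overlap for 3. Cyp27a1 (log2 fold change 0.90, edgeR adjusted p = 0.0721) and Oat (0.72, edgeR adjusted p = 0.162) were those with an unadjusted p under 0.05, both higher in Y67F-FXR, and were named after their values were seen. The part of either list in the results for Ahcy, Cth and Mat1a was not tested. Of 9 stellate cell and fibroblast markers 8 were fitted lower, with a median of -0.28 and sums of 218 to 236 CPM in FXR-WT and 160 to 217 CPM in Y67F-FXR livers. Dcn, at 130 CPM on average in FXR-WT and 121 CPM in Y67F-FXR livers, was the largest part of these sums. An unadjusted p under 0.05 was found for 3, all lower. The smallest was that of Lrat (log2 fold change -1.15, edgeR adjusted p = 0.0540). Dcn and Lrat were named after their values were seen. The sums overlapped between groups for markers of Kupffer cells (151 to 219 and 123 to 332 CPM), other leukocytes (8.17 to 10.8 and 5.68 to 11.9 CPM), sinusoidal endothelial cells (166 to 193 and 172 to 178 CPM) and cholangiocytes (46.0 to 71.1 and 54.1 to 60.6 CPM). Within the leukocyte list, the neutrophil genes S100a8 and S100a9 were lower in every Y67F-FXR liver than in any FXR-WT liver, at low counts. S100a8 was at 1.27, 0.970 and 0.864 CPM in FXR-WT replicates 1 to 3 and at 0.243, 0.164 and 0.0477 CPM in Y67F-FXR replicates 1 to 3 (log2 fold change -2.73, edgeR adjusted p = 0.0529). S100a9 had a log2 fold change of -1.95 (edgeR, adjusted p = 0.106). Both were named after their values were seen. Of 5 erythrocyte markers, the globin genes Hba-a1, Hba-a2, Hbb-b1 and Hbb-b2 were listed at 0 in every liver, and only Alas2 was tested.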

How the data were processed

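The authors sequenced liver RNA as paired 100-base reads and aligned them with STAR (2.5.0a in the methods, 2.5.3a in the submitters' processing notes). They deposited raw counts per gene from featureCounts 1.4.6-p4 on UCSC mm9 exons, with the reads of a pair counted singly and strand not used. Reads on several genes or places were left out. Their own comparison table (fold changes and p-values) was not used.

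These counts were compared between groups with edgeR 4.0.16 in R 4.3.3 (filterByExpr, TMM, glmQLFit, glmQLFTest, Benjamini-Hochberg adjustment over 12453 genes), with the mice unpaired. Calls needed an adjusted p below 0.05 together with a fold above 1.5. DESeq2 1.42.0 served as an alternative. Log2 CPM used a prior count of 2, and length offsets a loess span of 0.3. Figures were drawn with Python 3.11.15 and matplotlib 3.10.9. No pair of livers within a group agreed within counting noise (median chi-square per gene 2.23 to 8.10, with 0.455 for noise alone), so each was kept.

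Named were the 9 members, the called genes of each list (or else the 2 with the smallest p), Alb, Nr1h4 and the 3 genes most like Ahcy and Gnmt. Some genes given by this rule are not reported here. The members and lists were chosen with earlier results of these data known. The study's legend gives more mice per group than the 3 libraries each used here. Gene positions are in mm9 and promoters in GRCm38.p6, which were not mixed.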

Additional observations from a re-analysis of the deposited data

How the results depend on the processing

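The alternatives were other scaling, other filters, DESeq2, the likelihood ratio test, no fold minimum, gene length offsets, the replicate number as a block and each liver left out. The number of members called stayed at 0 in every one of them. In the fits to all 6 livers no member reached 1.5-fold, so wherever the fold minimum was kept this 0 was set whatever the p. An adjusted p under 0.05 was found for 2 members in DESeq2 and for 1 in the likelihood ratio test. Of all genes, 121 were called, and 431 by DESeq2, 447 by the likelihood ratio test, 247 with length offsets, 8 with the replicate block and 93 with the block and length offsets. Leaving out 1 liver gave 9 (without FXR-WT replicate 3) to 66 (without FXR-WT replicate 1). Scaling by library totals moved the share of higher genes among the calls from 56.2% to 43.3%. Of the neighbouring pathway genes, 2 were called, and 5 by DESeq2, 5 by the likelihood ratio test, 4 with length offsets, 1 with the replicate block, 1 with the block and length offsets, and 1 with any liver left out. Of the markers, 0 were called, and 1 with DESeq2 size factors, 1 with library totals, 3 with no filter, 6 by DESeq2, 7 by the likelihood ratio test, 6 with length offsets, 1 with the block and length offsets, and 0 to 1 with each liver left out. The cause of these shifts was not tested.

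The sign of the Pemt change, near 0, turned to 0.00533 with DESeq2 size factors, 0.00533 by DESeq2, 0.0034 with no filter and 0.0040 with the replicate block, and ran from -0.19 to 0.18 with each liver left out. Alb was at -0.0622 with library totals and -0.0489 to 0.0519 with livers left out. Bhmt ran from -0.0591 to 0.30 and Nnmt from -0.0487 to 0.63 with livers left out. Etnk2 had an adjusted p of 0.186 with the replicate block (edgeR). The numbers do not pair the livers: over genes, the deviations of same-numbered livers correlated at -0.52, -0.08 and 0.12, and the block changed no call of a member. The unadjusted p of Mat1a was 0.0545 with the block, while those of Ahcy and Cth stayed under 0.05. Over all alternatives the adjusted p of Ahcy ran from 0.00650 to 0.372 and that of Cth from 0.0113 to 0.404.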
